A study of Mus musculus with 12 samples.

Results

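The transcripts of 37 redox genes, the transcription factor NRF2 (gene Nfe2l2) with its inhibitor Keap1 and genes of glutathione, thioredoxin, NADPH, iron, peroxide and quinone metabolism, were followed in pre-adipocytes grown with or without macrophages. The 37 genes came from a fixed list of gene symbols, chosen with earlier results of these data known. They were matched to probes through the accession each probe carries, and all 37 were on the array and among the 13927 genes tested. The cells were 3T3-L1, a fibroblast line of mouse embryonic origin that can be turned into adipocytes, and they were cultured by themselves or below a porous insert that held RAW264.7 cells, a mouse macrophage line, and harvested after 6 h, 24 h or 48 h, so that both cell types shared medium without contact. At each time there was an untreated culture (NT) and cultures with serotonin (S), with cortisol (C) or with both hormones (CS), each hormone at 100 µM, and all groups came from the same unmodified cell line. On all 12 arrays the co-cultured cells were labelled with Cy5 and the matched cells grown alone, of the same treatment and time, with Cy3. Every condition had 1 array and dyes were never swapped, which leaves any dye bias that a probe has in its ratio.

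NRF2 is held at a low level by KEAP1, which marks it for degradation, and oxidants or electrophiles release it to act with small MAF proteins on antioxidant response elements. Its known targets make glutathione, reduce thioredoxin, supply NADPH and break down heme and quinones. The level of NRF2 protein is set mostly by its degradation, and neither protein nor enzyme activity was measured on these arrays. NRF2 is also known to affect the differentiation of adipocytes.

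Values are log2 ratios of co-culture over alone ± SE from the limma fit (n = 4 arrays a time, 1 of each treatment), and values on every array are given in the order NT, S, C and CS. A gene was called higher or lower at a Benjamini-Hochberg adjusted p under 0.05, over all genes tested, together with a change of at least 1.5-fold. The 4 treatments of a time served as its replicates after the treatment effect was removed, so p-values reflect no more than the remaining spread of these arrays. The arrays of a time shared a slide and those of other times did not, so time and slide cannot be told apart, and array position on the slide was tied to treatment in the same way. These are bulk RNA samples, in which fewer cells of a type and less RNA per cell cannot be told apart.

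Between 19949 and 22824 probes per array were well above background in Cy5, and 18443 to 21368 in Cy3. All 15 fibroblast and pre-adipocyte markers were well above background on all 12 arrays in both channels, whereas the adipocyte marker Adipoq was on none. Of 21 macrophage markers, 15 were tested and 7, 2 and 6 of them were called higher at the 3 times in their order, with 1 lower at 48 h. The shares called higher were 46.7%, 13.3% and 40%, against 4.37%, 4.66% and 14.5% of all genes tested. The share called lower at 48 h was 6.67%, against 16.7%. Of the 21 markers, Ptprc and Spi1 were well above background on at most 1 of the 12 arrays in either channel. Laptm5 and Fcgr1 were on none in Cy5, whereas Csf1r, Itgam, Cd14, Aif1, Cd53, Lcp1, Mpeg1 and Clec4d were on all 12 in both channels. The summed macrophage marker intensity ran from 12616 to 19374 in Cy5 against 7995 to 14006 in Cy3. The part of these markers in the results below was not tested. On 3 arrays the cells alone went against their labels. Zbtb16, a strong glucocorticoid target, had a log2 level in Cy3 of 10.67 on the S array of 6 h and 10.56 on the S array of 24 h, against 8.47 and 8.73 on the NT arrays of those times, and it was at 9.17 on the CS array of 24 h, against 11.35 on the C array. In Cy5, Zbtb16 went with the labels on the same arrays, at 8.96 (S, 6 h), 8.95 (S, 24 h) and 10.89 (CS, 24 h). Its Cy5 levels were 8.24 and 8.43 on those NT arrays and 10.66 on that C array. Calls lost without these 3 arrays, called the doubted arrays below, are given with both values, as are calls gained at a single time. Leaving the 3 out also leaves fewer arrays in each fit. Sign changes of uncalled values are not listed.

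The 37 genes had bright probes, with a median mean log2 intensity of 14.44 against 10.81 over all genes tested. All 37 were well above background in both channels on every array and none was saturated. Dye bias can change with intensity, and the counts at 6 h and 24 h differed with the normalisation. Loess, which removes a trend with intensity, called 6 of the 37 higher at 6 h and 3 at 24 h, and the deposited log ratios, which had their own dye normalisation, called 7 and 3. Median centring without loess called 34 and 31 of them higher, while it called 3490 genes higher and 225 lower at 6 h over all genes, against 609 and 728 with loess. Under median centring all genes had a median of 0.23, 0.39 and -0.15 at the 3 times, earliest first, and that of the 37 at 1.19, 0.99 and 0.18. At 48 h the counts were 10 higher and 8 lower with loess and 14 higher and 9 lower without it.

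**Figure D1:**
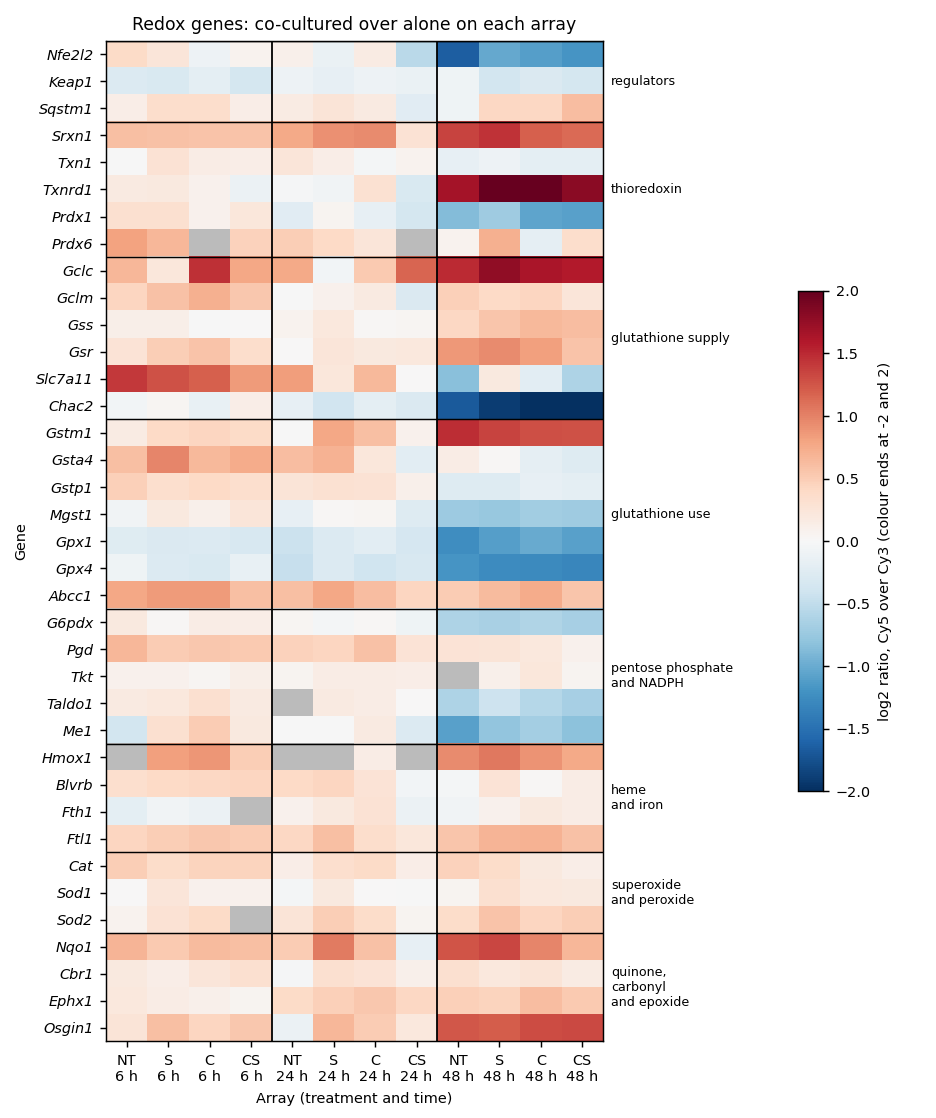
Log2 ratio of co-cultured over alone cells for the 37 genes (rows, by branch) on the 12 arrays (columns, by time and treatment), with red for higher and blue for lower in co-culture and grey for spots left out as outliers. The 48 h columns hold the strongest colours in both directions, from -2.33 for Chac2 to 2.25 for Txnrd1, and Slc7a11 runs from 1.41 on the NT array of 6 h to -0.84 on that of 48 h.

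Over time, co-culture first went with higher transcripts of a few glutathione and detoxification genes and later with a split in which some branches held both higher and lower members. At 6 h, 6 of 37 were called higher (background: 4.37% of all genes tested) and 0 lower (5.23%). At 24 h, 3 were called higher (background 4.66%) and 0 lower (3.68%). At 48 h, 10 were called higher (background 14.5%) and 8 lower (16.7%). The list was chosen with earlier results of these data known, so these counts beside the background are a description. The median log2 ratio of the 37 was 0.24, 0.12 and 0.21 at the 3 times, against -0.02, 0.00 and -0.01 over all genes tested. Gclc and Abcc1 were called higher at all 3 times, and 17 of the 37 were called at no time.

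At 6 h the highest ratio belonged to Slc7a11, which encodes the transport subunit of the cystine-glutamate exchanger that brings in cystine for glutathione (1.18 ± 0.14, adjusted p = 8.99e-05). Gclc, the catalytic subunit of glutamate-cysteine ligase, was at 0.78 ± 0.16, and Abcc1, an exporter of glutathione conjugates, at 0.77 ± 0.06. Hmox1, heme oxygenase 1, was at 0.74 ± 0.09 on the 3 arrays that kept its spot. Gsta4, a glutathione transferase for lipid aldehydes, reached 0.74 ± 0.09, and the quinone reductase Nqo1 reached 0.61 ± 0.11. All 6 were above 0 on every array of 6 h on which they were measured. At 24 h the called genes were Srxn1 (0.73 ± 0.08), Abcc1 (0.60 ± 0.06) and Gclc (0.60 ± 0.16). Without the doubted arrays, the 24 h values of Abcc1 (0.57 ± 0.10) and Gclc (0.65 ± 0.20) were no longer called, whereas that of Slc7a11 changed from 0.43 ± 0.14 to 0.84 ± 0.17 and was called (adjusted p = 0.018). Some calls near the threshold also rested on a single array, as the 6 h value of Gclc was 0.55 without the C array and that of Nqo1 0.44 without the CS array, the 24 h value of Gclc was 0.50 without the NT array and 0.40 without the CS array, and that of Abcc1 was 0.57 without the S array, all then uncalled.

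Among the regulators, Nfe2l2 itself was lower at 48 h (-1.24 ± 0.12, 2.37-fold, adjusted p = 3.93e-06). Nfe2l2 had log2 ratios of 0.38, 0.24, -0.11 and 0.07 at 6 h, 0.10, -0.14, 0.16 and -0.54 at 24 h, and -1.66, -1.03, -1.11 and -1.19 at 48 h. The 48 h arrays lay below all arrays of the earlier times, with no overlap. Keap1 was not called, with -0.27, -0.30, -0.19 and -0.34 at 6 h, -0.10, -0.16, -0.10 and -0.13 at 24 h, and -0.08, -0.37, -0.29 and -0.35 at 48 h. It was below 0 on all 12 arrays, by less than the 1.5-fold threshold. Sqstm1, the autophagy receptor p62 that binds KEAP1, was not called either (0.34 ± 0.10 at 48 h).

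In the thioredoxin branch, 2 of 5 members were called higher at 48 h (background 14.5%) and 1 lower (16.7%). Counts in branches this small describe single members, and no branch was tested as a set. Txnrd1, the cytosolic thioredoxin reductase that passes electrons from NADPH to thioredoxin, was 3.90-fold higher (1.96 ± 0.08, adjusted p = 2.11e-08). Txnrd1 had log2 ratios of 0.19, 0.19, 0.08 and -0.12 at 6 h, -0.03, -0.07, 0.30 and -0.30 at 24 h, and 1.66, 2.25, 2.14 and 1.81 at 48 h. The earlier arrays straddled 0 and those of 48 h all lay above them. Srxn1, sulfiredoxin, which repairs over-oxidised peroxiredoxins, was 2.44-fold higher at 48 h (1.29 ± 0.08). Srxn1 had log2 ratios of 0.60, 0.59, 0.57 and 0.57 at 6 h, 0.76, 0.91, 0.94 and 0.30 at 24 h, and 1.36, 1.45, 1.20 and 1.14 at 48 h. It was above 0 on all 12 arrays, and only the CS array of 24 h, a doubted one, fell below the 6 h values. Without the doubted arrays Srxn1 was also called at 6 h (0.63 ± 0.09 against 0.58 ± 0.08), as was Prdx6 (0.68 ± 0.14 against 0.55 ± 0.12).

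The peroxiredoxin Prdx1, a substrate of sulfiredoxin and thioredoxin, was lower at 48 h (-0.93 ± 0.06) by its brightest probe, while its other probe was at 0.07 ± 0.06 and was not called. Thioredoxin itself, Txn1, changed least in the branch. Txn1 had log2 ratios of -0.01, 0.29, 0.14 and 0.13 at 6 h, 0.25, 0.13, -0.04 and 0.08 at 24 h, and -0.17, -0.10, -0.19 and -0.20 at 48 h. Its values lay between -0.20 and 0.29 and it was not called at any time. Prdx6 was not called by its brightest probe (0.24 ± 0.10 at 48 h, from -0.18 to 0.71 on single arrays). Its other probes, of 4, were at -0.55 ± 0.05, -1.22 ± 0.08 and -0.40 ± 0.06, and the probe at -1.22 alone was called lower.

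**Figure D2:**
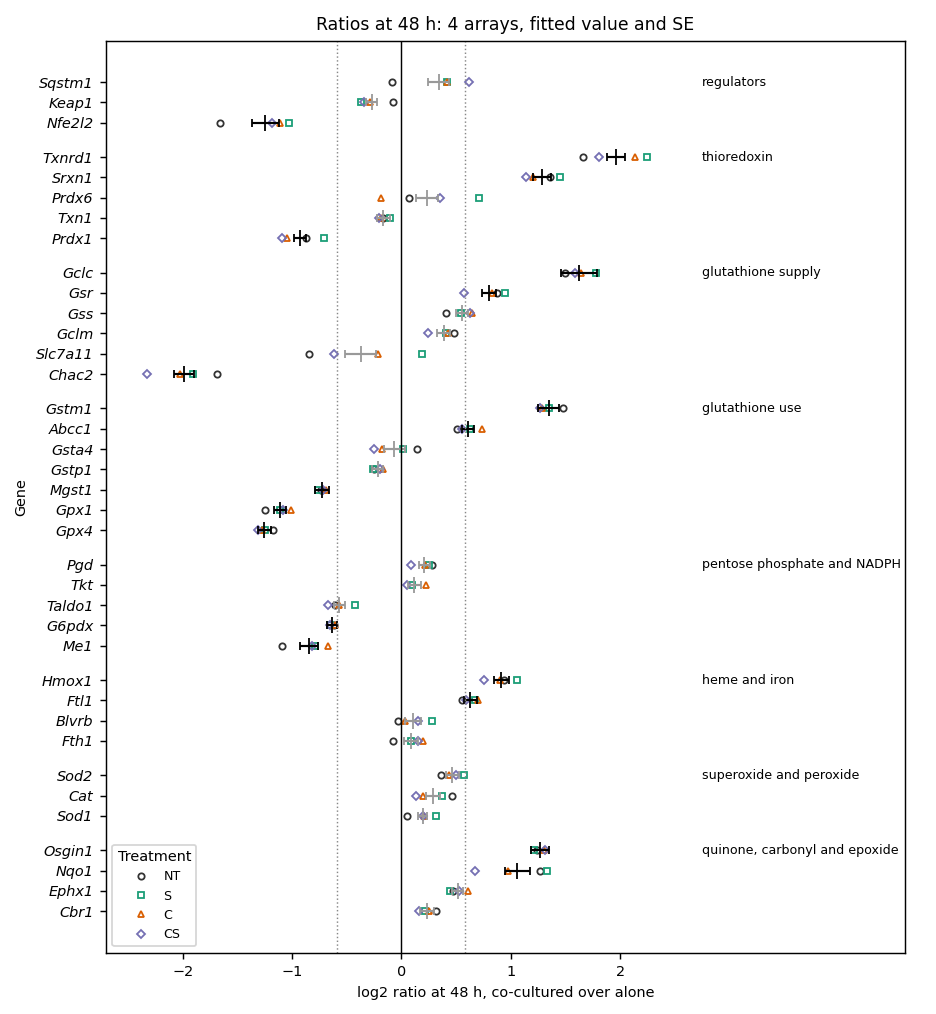
Log2 ratio of co-cultured over alone cells at 48 h (x axis) for the 37 genes (y axis, by branch), with 1 open symbol for each treatment, the fitted value as a tick with its SE in black where called and grey where not, and dotted lines at 1.5-fold. Txnrd1 (1.96) and Prdx1 (-0.93) mark the ends of the thioredoxin branch, and Gclc (1.63) and Chac2 (-1.98) those of the glutathione supply branch.

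In the glutathione supply branch, 2 of 6 members were called higher at 48 h (background 14.5%) and 1 lower (16.7%). The 1 called lower, Chac2, breaks glutathione down rather than supplying it. Gclc was 3.09-fold higher (1.63 ± 0.16, adjusted p = 4.1e-06). Gclc had log2 ratios of 0.66, 0.23, 1.46 and 0.77 at 6 h, 0.76, -0.05, 0.52 and 1.16 at 24 h, and 1.499, 1.78, 1.64 and 1.59 at 48 h. The earlier arrays were scattered, and those of 48 h were close together and above them. Gsr, glutathione reductase, was higher (0.80 ± 0.06), and its other probe gave 1.26 ± 0.07. Gclm, the modifier subunit of the same ligase as Gclc, was at 0.39 ± 0.06 and glutathione synthetase, Gss, at 0.56 ± 0.06, both under the 1.5-fold threshold.

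Chac2, which breaks glutathione down by cutting off its glutamyl group, had the lowest 48 h ratio of the 37 genes, 3.96-fold lower (-1.98 ± 0.09, adjusted p = 2.56e-08). Chac2 had log2 ratios of -0.05, 0.05, -0.16 and 0.13 at 6 h, -0.17, -0.38, -0.20 and -0.30 at 24 h, and -1.68, -1.91, -2.02 and -2.33 at 48 h. None of the 48 h arrays came near those of the earlier times. The ratio of Slc7a11, called higher at 6 h, was below 0 at 48 h, as was that of Gsta4, described with the genes that use glutathione. Slc7a11 had log2 ratios of 1.41, 1.28, 1.20 and 0.84 at 6 h, 0.84, 0.22, 0.65 and 0.01 at 24 h, and -0.84, 0.19, -0.21 and -0.61 at 48 h. Its 48 h value was not called (-0.37 ± 0.14), and the difference of 48 h minus 6 h was -1.55 ± 0.20 (adjusted p = 7.91e-05). The difference of 24 h minus 6 h was called too (-0.75 ± 0.20, adjusted p = 0.0444), as the only one of 37 (background 1.68% higher and 0.661% lower), but 9 of the 12 fits that left out a single array lost it, as did those with the deposited log ratios (-0.80) or normexp offset 10 (-0.76), and without the doubted arrays it was -0.49 ± 0.20 (adjusted p = 0.363).

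Among the 7 genes that use or export glutathione, 2 were higher (background 14.5%) and 3 lower (16.7%) at 48 h. Gstm1, a mu-class glutathione transferase, was 2.54-fold higher (1.35 ± 0.10, adjusted p = 4.21e-07). Gstm1 had log2 ratios of 0.17, 0.39, 0.43 and 0.39 at 6 h, -0.01, 0.77, 0.60 and 0.09 at 24 h, and 1.48, 1.35, 1.28 and 1.27 at 48 h. The 48 h arrays were the highest and the closest together, and its dimmer probe was called higher at 48 h too (0.72 ± 0.08). Probes of the mu-class transferases can share signal between near-identical genes. Abcc1 was called higher at 48 h as well (0.61 ± 0.06), just past the threshold, and was no longer called without the C array (0.58) or the CS array (0.57).

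Both glutathione peroxidases were lower at 48 h. Gpx1, the cytosolic enzyme, was 2.16-fold lower (-1.11 ± 0.05, adjusted p = 3.46e-08), with log2 ratios of -0.24, -0.29, -0.28 and -0.32 at 6 h, -0.43, -0.28, -0.22 and -0.34 at 24 h, and -1.25, -1.11, -1.01 and -1.08 at 48 h. Gpx4, which reduces lipid hydroperoxides in membranes, was 2.38-fold lower (-1.25 ± 0.06, adjusted p = 2.97e-08), with log2 ratios of -0.09, -0.27, -0.30 and -0.15 at 6 h, -0.45, -0.27, -0.39 and -0.32 at 24 h, and -1.18, -1.25, -1.27 and -1.31 at 48 h. Both were below 0 on all 12 arrays and far lower at 48 h than before. Mgst1, a microsomal glutathione transferase, was also lower (-0.73 ± 0.06), though not called with median centring (-0.56). Gsta4 was the member of this branch nearest to 0 at 48 h (-0.06 ± 0.09), with log2 ratios of 0.61, 0.98, 0.64 and 0.74 at 6 h, 0.62, 0.70, 0.23 and -0.21 at 24 h, and 0.15, 0.02, -0.17 and -0.25 at 48 h. Its difference of 48 h minus 6 h was -0.81 ± 0.13 (adjusted p = 0.000401). Gstp1 was not called at any time by its brightest probe (-0.22 ± 0.05 at 48 h), while its dimmer probe was called lower at 48 h (-1.02 ± 0.06).

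In the pentose phosphate and NADPH branch, 2 of 5 members were lower at 48 h (background 16.7%). None was called higher at any time (background 4.37%, 4.66% and 14.5%, earliest first). Me1, malic enzyme 1, was at -0.84 ± 0.08, with log2 ratios of -0.37, 0.32, 0.51 and 0.19 at 6 h, -0.01, -0.01, 0.18 and -0.28 at 24 h, and -1.09, -0.79, -0.67 and -0.82 at 48 h. The other 2 probes of Me1 were at -0.21 ± 0.06 and -0.38 ± 0.08 and were not called. G6pdx, glucose-6-phosphate dehydrogenase, the entry enzyme of the pathway, was at -0.63 ± 0.04, from -0.66 to -0.60 on single arrays. With the deposited log ratios, and with processed signals without loess, G6pdx was at -0.54 and was not called. Taldo1, transaldolase, was at -0.57 ± 0.05 at 48 h, just inside the 1.5-fold threshold and not called. Tkt, transketolase, had log2 ratios of 0.09, 0.08, 0.03 and 0.12 at 6 h and 0.05, 0.15, 0.15 and 0.13 at 24 h, and at 48 h it was at 0.10, 0.23 and 0.06 on the S, C and CS arrays, its NT spot having been left out. It lay between 0.03 and 0.23 throughout. Pgd, which follows G6pdx in the oxidative arm, was above 0 on all 12 arrays without being called (0.56 ± 0.05 at 6 h and 0.21 ± 0.05 at 48 h), and it was called at 6 h without the doubted arrays (0.59 ± 0.08).

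Hmox1 led the heme and iron branch at 48 h (0.91 ± 0.07), and its dimmer probe, which was kept on all 12 arrays, gave 1.73 ± 0.08. The brightest probe of Hmox1 had log2 ratios of 0.82, 0.89 and 0.50 on the S, C and CS arrays at 6 h, 0.15 on the C array at 24 h, and 0.94, 1.05, 0.90 and 0.75 at 48 h. Its spot was left out as an outlier on the other 4 arrays, so its 24 h value and each difference from 24 h rest on 1 array, and the dimmer probe was at 0.38 ± 0.08 at 24 h. Ftl1, ferritin light chain, was higher by its brightest probe (0.63 ± 0.06), while its other probe lay below 0 and was not called (-0.45 ± 0.08). With the deposited log ratios Ftl1 was at 0.42 and was not called. Fth1, ferritin heavy chain, was the least changed of the branch, with -0.19, -0.08 and -0.12 on the NT, S and C arrays at 6 h, 0.08, 0.20, 0.29 and -0.12 at 24 h, and -0.08, 0.09, 0.19 and 0.15 at 48 h. These values lay on both sides of 0.

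No member of the superoxide and peroxide branch was called. Sod2, the mitochondrial superoxide dismutase, was at 0.47 ± 0.06 at 48 h, with log2 ratios of 0.07, 0.29 and 0.39 on the NT, S and C arrays at 6 h, 0.25, 0.50, 0.37 and 0.05 at 24 h, and 0.37, 0.57, 0.43 and 0.50 at 48 h. Sod1, its cytosolic counterpart, had log2 ratios of 0.01, 0.24, 0.09 and 0.09 at 6 h, -0.04, 0.19, 0.01 and -0.01 at 24 h, and 0.05, 0.32, 0.21 and 0.20 at 48 h. Catalase, Cat, was at 0.29 ± 0.07 at 48 h. All 3 were above 0 on each 48 h array, by less than 1.5-fold in every fitted value.

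In the quinone, carbonyl and epoxide branch, 2 of 4 members were higher at 48 h (background 14.5%). Osgin1, a growth inhibitor induced by oxidative stress, was 2.41-fold higher (1.27 ± 0.08, adjusted p = 2.03e-07), with log2 ratios of 0.26, 0.61, 0.44 and 0.54 at 6 h, -0.12, 0.66, 0.50 and 0.21 at 24 h, and 1.24, 1.22, 1.30 and 1.31 at 48 h. Nqo1 was 2.08-fold higher (1.06 ± 0.11, adjusted p = 7.63e-06), with log2 ratios of 0.68, 0.52, 0.64 and 0.61 at 6 h, 0.50, 1.04, 0.59 and -0.16 at 24 h, and 1.27, 1.33, 0.97 and 0.67 at 48 h. The 48 h arrays of Osgin1 stood apart from the earlier ones, whereas those of Nqo1 overlapped with them. Cbr1, a carbonyl reductase, had log2 ratios of 0.19, 0.14, 0.24 and 0.32 at 6 h, -0.02, 0.33, 0.27 and 0.11 at 24 h, and 0.31, 0.21, 0.25 and 0.16 at 48 h, and was not called. Ephx1, an epoxide hydrolase, was at 0.51 ± 0.05 at 48 h and was not called either.

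**Figure D3:**
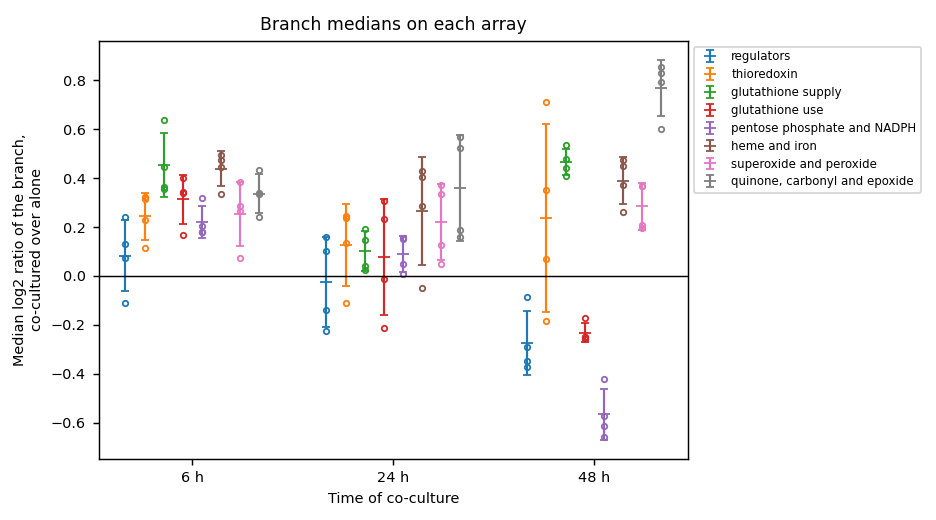
Median log2 ratio of the members of each branch on each array (open circles), with the mean and SD over the 4 arrays of a time. At 48 h the pentose phosphate and NADPH branch lies between -0.66 and -0.42 and the glutathione supply branch between 0.41 and 0.53, while the thioredoxin branch spreads from -0.18 to 0.71.

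The branches can be set side by side by the median of their members on each array, as a description with no test. The thioredoxin branch averaged 0.24 ± 0.10 (SD, n = 4 arrays) at 6 h, 0.13 ± 0.17 at 24 h and 0.24 ± 0.38 at 48 h. Its median at 48 h is the value of the uncalled Prdx6, which lay between Txnrd1 and Srxn1 above and Txn1 and Prdx1 below. That value comes from the brightest probe of Prdx6, whose other probes were at -0.55, -1.22 and -0.40 at 48 h. Glutathione supply averaged 0.45 ± 0.13, 0.10 ± 0.08 and 0.47 ± 0.05 at the 3 times, and glutathione use 0.31 ± 0.10, 0.08 ± 0.24 and -0.23 ± 0.04. The pentose phosphate and NADPH branch averaged 0.22 ± 0.07, 0.09 ± 0.07 and -0.57 ± 0.10. At 48 h its 4 arrays lay below all 4 of each glutathione branch and below all 4 of the thioredoxin branch. With median centring, the 48 h median of fitted values was instead lower for glutathione use than for the pentose phosphate and NADPH branch.

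Differences between times were tested in the same fit. From 24 h to 48 h, the ratio of 6 members went up (background 9.32%) and that of 10 went down (11.6%). From 6 h to 48 h, 5 went up (background 11.9%) and 12 went down (12.2%). Txnrd1 had the greatest increase in both comparisons (1.99 ± 0.12 and 1.88 ± 0.12) and Chac2 the greatest decrease (-1.72 ± 0.13 and -1.98 ± 0.13). Gstp1 and Taldo1, called at no single time, were among those whose ratio went down from 6 h to 48 h (-0.61 ± 0.07 and -0.79 ± 0.07). The call of Gstp1 was lost without the NT array of 6 h or of 48 h (-0.58 in both cases), and those of Gsr and Slc7a11 from 24 h to 48 h without the NT array of 48 h (0.56 and -0.54). With median centring in place of loess, 1 member went up and 26 went down in both comparisons, and the values of Gsr (48 h minus 24 h), Hmox1 (48 h minus 24 h) and Srxn1 (48 h minus 6 h) turned below 0.

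**Figure D4:**
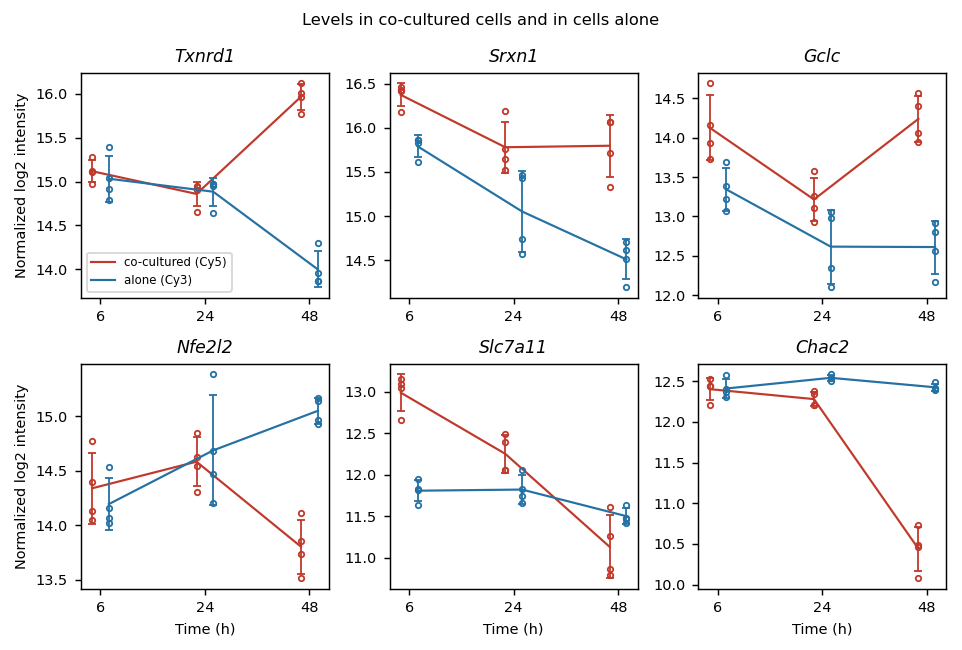
Normalised log2 intensity (y axes, differing between panels) at the 3 times (x axes, evenly spaced) of 6 genes in co-cultured cells (Cy5, red) and in cells alone (Cy3, blue), with a circle for each array and the mean and SD of 4 arrays. The lines of Txnrd1 part after 24 h in both directions, from 14.86 to 15.96 in co-culture and from 14.88 to 14.00 alone, while for Chac2 the co-cultured cells drop to 10.44 and the cells alone stay near 12.4.

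The single channels show in which channel a ratio moved between times. Each time was a slide of its own, so a change of level in either culture cannot be told apart from a slide difference. Levels are normalised log2 intensities, which can be compared for the same probe between arrays but not between probes. In co-cultured cells, 2 members were higher (background 12.9%) and 10 lower (15.5%) at 48 h than at 6 h. In cells alone, 3 were higher (background 6.51%) and 6 lower (7.23%). Both channels come from the same arrays and were fitted separately.

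For Txnrd1 both channels moved. The co-cultured cells had levels of 14.97, 15.10, 15.12 and 15.28 at 6 h and 15.97, 16.12, 16.01 and 15.77 at 48 h, an increase of 0.85 ± 0.10 (adjusted p = 4.28e-05). The cells alone had 14.79, 14.91, 15.04 and 15.40 at 6 h and 14.31, 13.87, 13.87 and 13.96 at 48 h, and their level fell by 1.03 ± 0.14 (adjusted p = 0.000648). In neither channel did the 2 times overlap. For Srxn1, the level of the cells alone fell by 1.28 ± 0.19 (adjusted p = 0.000982), from 15.87, 15.83, 15.86 and 15.61 to 14.71, 14.62, 14.52 and 14.19, while the co-cultured cells differed by -0.58, which was not called. So the ratio of Srxn1 went up over time while both levels were lower at 48 h than at 6 h. The fall was larger in cells alone and was called only there.

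Gclc was alike in that the call at 48 h against 6 h lay in the cells alone (-0.73 ± 0.22, adjusted p = 0.0302), with 0.11 in co-culture, and without the doubted arrays it was at -0.47 ± 0.13 and no longer called. Leaving out a single array also ended this call, for the NT, S and CS arrays of 6 h and the S and C arrays of 48 h (-0.78 to -0.46). Nqo1 (-0.65 ± 0.18) and Osgin1 (-0.82 ± 0.19) were also called lower in cells alone and not called in co-culture. The ratio of Nqo1 differed by 0.45 ± 0.16 between these times, which was not called, and its call in cells alone was lost without the S or C array of 6 h or the NT or CS array of 48 h (-0.63 to -0.54). Gsta4 (0.88 ± 0.19) and Prdx1 (0.65 ± 0.10) were called higher in cells alone, Prdx1 no longer without the CS array of 6 h or without the doubted arrays (0.58 in both). Nfe2l2 was called higher in cells alone (0.85 ± 0.20, adjusted p = 0.00901), where its levels were 14.02, 14.53, 14.16 and 14.06 at 6 h and 15.17, 15.13, 14.96 and 14.92 at 48 h. In co-culture Nfe2l2 differed by -0.53 and was not called. The levels of cells alone at 48 h lay above all of 6 h.

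Other members moved in the co-cultured cells. The level of Chac2 in co-culture fell by 1.96 ± 0.11 from 6 h to 48 h (adjusted p = 1.04e-06), with 12.52, 12.44, 12.21 and 12.44 at 6 h and 10.73, 10.49, 10.47 and 10.08 at 48 h. The cells alone stayed between 12.30 and 12.58 at these times and differed by 0.01. The level of Slc7a11 in co-culture fell by 1.86 ± 0.16 (adjusted p = 7.59e-06), with 13.05, 13.10, 13.15 and 12.66 at 6 h, 12.50, 12.06, 12.40 and 12.06 at 24 h, and 10.79, 11.61, 11.26 and 10.87 at 48 h. No array of 1 time overlapped with those of another, whereas the cells alone kept between 11.42 and 12.05 over all 3 times and were not called. Gstm1 was higher in co-culture at 48 h (1.44 ± 0.10, adjusted p = 2.29e-06), and Gpx1 (-0.98 ± 0.07), Gpx4 (-0.95 ± 0.06) and Mgst1 (-0.79 ± 0.14) were lower there. None of these 4 was called in cells alone, and their ratios differed between 6 h and 48 h in the test of the difference. Abcc1 was also lower in co-culture (-0.71 ± 0.11), but in cells alone it was at -0.55 ± 0.12 (adjusted p = 0.00567), inside the 1.5-fold threshold, and its ratio differed by -0.16 ± 0.08 between these times, which was not called.

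In co-cultured cells, 4 of 7 members of the glutathione use branch were called lower at 48 h than at 6 h (background 15.5%). Another 1 was called higher (12.9%). In the pentose phosphate and NADPH branch 4 of 5 were called, all lower. They were Pgd (-1.32 ± 0.08), Me1 (-1.15 ± 0.08), G6pdx (-1.07 ± 0.08) and Taldo1 (-0.94 ± 0.07). Pgd was the only one of the 4 also called in cells alone (-0.97 ± 0.11, adjusted p = 0.000291). Levels of Pgd in co-culture were 15.61, 15.78, 15.57 and 15.52 at 6 h and 14.58, 14.38, 14.15 and 14.11 at 48 h, and those of cells alone were 14.95, 15.28, 15.04 and 14.99 at 6 h and 14.30, 14.13, 13.93 and 14.02 at 48 h. Its ratio therefore changed little while both levels went down, and most of this lay between 6 h and 24 h (-1.18 ± 0.08 in co-culture and -1.06 ± 0.11 alone). Between 6 h and 24 h, 0 members were higher in co-culture (background 5.3%) and 6 lower (3.55%), among them Gclc (-0.91 ± 0.09), Hmox1 (-0.82 ± 0.13, with 1 array at 24 h) and Gclm (-0.68 ± 0.20), and in cells alone 0 were higher (background 5.58%) and 3 lower (5.52%), namely Pgd, Srxn1 (-0.74 ± 0.19) and Gclc (-0.73 ± 0.22). Of the 6 in co-culture, 3 were called without the doubted arrays. The calls of Slc7a11 (-0.74 with them, -0.61 without), Srxn1 (-0.59 and -0.64) and Gclm (-0.68 and -0.66) were lost. In cells alone the call of Gclc was lost without them too (-0.73 and -0.48). Leaving out single arrays ended the 24 h calls of Gclm in 6 of 12 fits, of Srxn1 in 4 of 12 in either channel, of Gclc in cells alone in 6 of 12, and of Slc7a11 in co-culture in 1 of 12 (the S array of 24 h, -0.57). The call of Hmox1 was lost in 1 of 11 fits (the C array of 6 h, -0.72), and the remaining fit gave no value, since only the C array of 24 h kept its spot.

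No co-culture ratio of the 37 genes passed the test for a hormone. With limma, 0 of 37 were called for cortisol (3 with an unadjusted p under 0.05, smallest adjusted p = 0.496), 0 for serotonin (1 and 0.825) and 0 for both hormones beyond their sum (7 and 0.507). Over all genes, 3 were called higher for cortisol, 0.0215% of those tested, and 0% in the other comparisons. The largest differences of a member were 0.38 ± 0.19 for Gclc with cortisol, 0.21 ± 0.14 for Prdx6 with serotonin and -0.64 ± 0.20 for Me1 with both beyond their sum, and differences of these sizes could not be shown at this number of arrays. The doubted arrays bear on these comparisons most, and without them the count was 0 as well.

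In the single channels, Nqo1 was the only member called for a hormone. It was lower with cortisol in co-cultured cells (-0.76 ± 0.13, adjusted p = 0.00622), where 0 members were called higher (background 1.61%) and 1 lower (0.941%). Levels of Nqo1 in co-culture were 13.84, 13.70, 13.52 and 13.44 at 6 h, 13.95, 13.62, 12.76 and 12.87 at 24 h, and 13.94, 13.92, 13.10 and 12.71 at 48 h. At each time both arrays with cortisol lay below both without it. In cells alone the levels of Nqo1 were 13.15, 13.18, 12.88 and 12.84 at 6 h, 13.45, 12.57, 12.18 and 13.03 at 24 h, and 12.68, 12.59, 12.13 and 12.04 at 48 h. There too the arrays with cortisol were below those without it at 6 h and 48 h, and the difference with cortisol was -0.42 ± 0.15 (adjusted p = 0.155), which was not called. The ratio of Nqo1 differed by -0.34 ± 0.13 with cortisol (adjusted p = 0.622), so the drop is not shown to differ between the cultures. Without the doubted arrays the difference of Nqo1 with cortisol in co-cultured cells was -0.90 ± 0.18 and was not called (adjusted p = 0.0752). In cells alone limma called 0 members for cortisol (background 0.661% higher and 0.215% lower, 7 members with an unadjusted p under 0.05) or for serotonin (1), and in co-culture none for serotonin (3).

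Several members have more than 1 probe, 51 probes for the 37 genes, and for 5 of the 11 genes with several probes the calls at 48 h differed between probes. These were Prdx1, Prdx6, Gstp1, Me1 and Ftl1. The probes of Gsr, Gstm1, Mgst1 and Hmox1 gave the same call at 48 h, and those of Cat and Ephx1 were all uncalled. Which transcripts the probes of a gene reach was not tested.

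**Figure D5:**
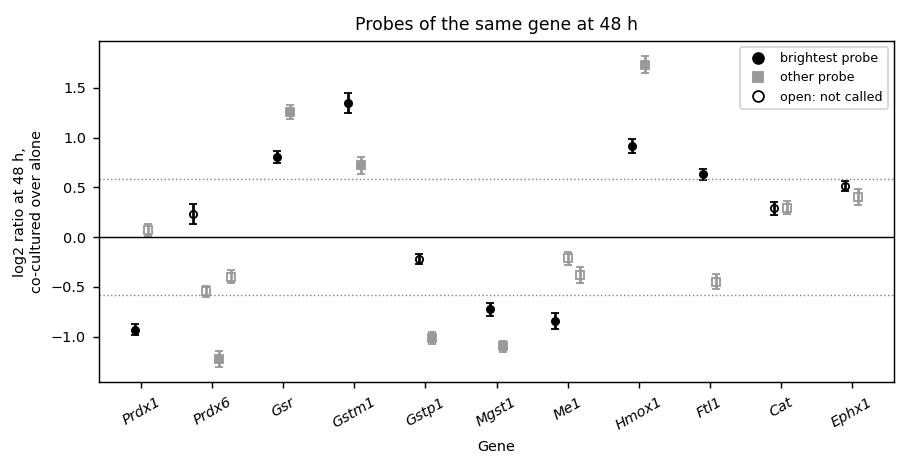
Fitted log2 ratio at 48 h ± SE (y axis) of each probe of the 11 genes with several probes (x axis), with the brightest probe as a black circle, other probes as grey squares, open symbols where not called and dotted lines at 1.5-fold. Probes of Ftl1 (0.63 and -0.45) and Prdx6 (0.24 to -1.22) lie on both sides of 0, while both probes of Hmox1, Gsr and Gstm1 lie above the upper line.

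Of 91 further redox genes from the same 8 branches, 85 were tested, and at 48 h 15 were higher and 18 lower, with a median log2 ratio of -0.11. These are shares of 17.6% and 21.2%, near the 14.5% and 16.7% of all genes tested. Among the partners and competitors of NRF2, the small MAF genes Maff (2.55 ± 0.10) and Mafk (1.43 ± 0.10) and the repressor Bach1 (1.24 ± 0.09) were higher at 48 h, and Maff was already higher at 6 h (0.95 ± 0.10). In the thioredoxin branch the mitochondrial peroxiredoxin Prdx3 was lower (-1.65 ± 0.08). In glutathione supply, 1 of 10 was higher and 4 were lower, among them Cth, which makes cysteine from cystathionine (-1.84 ± 0.08), and Chac1, which like Chac2 breaks down glutathione (-1.81 ± 0.09). Of genes that use glutathione, Mgst3 (-1.60 ± 0.11) and Gstm5 (-1.16 ± 0.06) were lower. In the NADPH branch Rpia, ribose-5-phosphate isomerase (-1.58 ± 0.07), and Idh1, the cytosolic NADPH-forming isocitrate dehydrogenase (-1.31 ± 0.14), were lower and the mitochondrial malic enzyme Me2 was higher (1.08 ± 0.08).

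Of the remaining further genes with a change of at least 2-fold, the transferrin receptor Tfrc was lower (-1.06 ± 0.12) and the metallothionein Mt2 higher (1.11 ± 0.15) at 48 h. Among NADPH oxidase genes, Cyba was higher (1.03 ± 0.19, from 0.04 to 1.73 on single arrays) and Nox4 lower (-1.04 ± 0.08). Ugdh, which makes the glucuronic acid donor (1.76 ± 0.12), and Por, cytochrome P450 reductase (1.04 ± 0.08), were higher, and Aldh1a1 (-1.36 ± 0.21) and Pir (-1.07 ± 0.09) were lower.

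The upstream sequences of the members were searched for the core of the antioxidant response element, TGACNNNGC (N is any base), on both strands, in windows around the transcription starts from RefSeq (build GRCm38.p6). Windows were at hand for 31 of the 37 genes, all but Prdx6, Gclc, Gsr, Gsta4, Abcc1 and Hmox1. The core was in 10 of the 31 genes (32.3%), against 14% of all 27025 genes with a window, and in 10 of 42 windows (23.8%) against 12.4% of all 32851. Of members called higher at 48 h it was in 2 of 6 (33.3%), of those called lower in 5 of 8 (62.5%), and of the uncalled in 3 of 17 (17.6%). The letters alone do not make a site, and a window without them says nothing of more distant elements. The matches upstream of the start in members called at 48 h are shown because the gene for NRF2 and both directions of change are among them. Each is given on the strand of its gene, with the core in capitals, reading GCNNNGTCA where the core lies on the opposite strand.
Txnrd1: tggatttttGCTTTGTCAttctgacac
Prdx1: agggaaagcGCTGAGTCAtcccccgta
Nfe2l2: cagcccaccTGACTCCGCcatgccccg
G6pdx: ggcgggtcaGCTCAGTCAaagcacacg
Mgst1: cggggcttgGCACGGTCAggaggcggg
They lie at chr10:82859105-82859131 on the plus strand (Txnrd1, called higher), chr4:116685457-116685483 on the plus strand (Prdx1, lower), chr2:75704886-75704912 on the minus strand (Nfe2l2, lower), chrX:74428920-74428946 on the minus strand (G6pdx, lower) and chr6:138140462-138140488 on the plus strand (Mgst1, lower). The first base of the core is at position -92 from a start of Txnrd1, -133 of Prdx1, -240 of Nfe2l2, -57 of G6pdx and -56 of Mgst1. Txnrd1 had 3 windows and Mgst1 had 2, and for each of them only 1 window held the core.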

How the data were processed

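RNA of 3T3-L1 cells was hybridised on 12 dual-colour Agilent arrays. The authors extracted the spots with Agilent Feature Extraction (version 10.7.3.1 per the file headers, while the submitters' notes name 10.5.1.1). For each spot the deposited files give the linear intensity of both channels, local backgrounds, processed signals, a log10 ratio of Cy5 over Cy3, and other columns, flags for outlier, saturated and well-above-background spots. The value table of the series, also deposited, held the same log10 ratio. The authors' own error and p columns of each spot were not used.

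Median spot signals were corrected by normexp (offset 50) and normalised within arrays by loess in limma 3.58.1 (R 4.3.3, statmod 1.5.0). Control spots, outlier spots and 58 spots whose local background exceeded 5 times the array median were left out. RefSeq gene names (GRCm38.p6) were matched to 27508 of 39429 probes. Probes had to lie well above background on at least 3 arrays in either channel, and the brightest stood for its gene, leaving 13927 genes. Single channels were Aquantile-normalised. For ratios and for each channel, lmFit and eBayes fitted additive time and treatment terms to the 12 arrays, leaving 6 residual degrees of freedom. Tests were two-sided, and the fit was tested on simulated data. The number of arrays limits the precision.

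Alternatives were Feature Extraction's processed signals, another offset, median centring, the deposited log ratios, other filters and fold thresholds, array weights, averaging over probes of a gene, time alone in the model, quantile normalization of channels, and leaving out single or doubted arrays.

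The members, branches and further gene lists were chosen with earlier results of these data known. Values on every array are given for members called at 48 h with an absolute log2 ratio of at least 1 and for the largest and smallest 48 h ratio of each branch, and further redox genes were named where called with an absolute log2 ratio of at least 1 at any time. The plots were made in python 3.11.15 with matplotlib 3.10.9.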

Additional observations from a re-analysis of the deposited data

Results flagged for a closer look

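At 6 h, Gstm1 had a log2 ratio of 0.17 on the NT array, far from the other 3 arrays, which lay between 0.39 and 0.43. Among 103 groups of member values tested in this way, this was the only one with an array so far from the rest. Chance alone flags about 1 group in 20, more often than the 1 in 103 seen here. The arrays of a group also differ in treatment. The cause was not tested.

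The co-culture ratio differed between times, by the test of the difference itself, for these members. From 6 h to 24 h it was Slc7a11 (-0.75). From 24 h to 48 h the ratio went up for Txnrd1 (1.99), Gclc (1.03), Gstm1 (0.98), Osgin1 (0.96), Hmox1 (0.83, with 1 array at 24 h) and Gsr (0.64), and down for Chac2 (-1.72), Nfe2l2 (-1.14), Gpx4 (-0.89), Me1 (-0.81), Slc7a11 (-0.80), Gpx1 (-0.79), Prdx1 (-0.76), Taldo1 (-0.67), Mgst1 (-0.64) and G6pdx (-0.62). From 6 h to 48 h it went up for Txnrd1 (1.88), Gstm1 (1.00), Gclc (0.84), Osgin1 (0.81) and Srxn1 (0.71), and down for Chac2 (-1.98), Slc7a11 (-1.55), Nfe2l2 (-1.39), Prdx1 (-1.17), Gpx4 (-1.05), Me1 (-1.01), Mgst1 (-0.84), Gpx1 (-0.83), Gsta4 (-0.81), Taldo1 (-0.79), G6pdx (-0.76) and Gstp1 (-0.61). Each time was a slide of its own, so time and slide cannot be told apart.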

How the results depend on the processing

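Median centring without loess called 34 members at 6 h, 31 at 24 h, 27 from 24 h to 48 h, 27 from 6 h to 48 h and 0 from 6 h to 24 h, and turned Gsr (-0.20) and Hmox1 (-0.34) from 24 h to 48 h and Srxn1 (-0.36) from 6 h to 48 h below 0, none of them called. It moved branch medians at 6 h to 1.23 (thioredoxin), 1.03 (glutathione supply), 1.01 (glutathione use) and 1.31 (pentose phosphate and NADPH), at 24 h to 1.29, 0.66, 0.99 and 1.26, and at 48 h to 0.60 (thioredoxin, 0.0436 with the deposited log ratios, both moved by less than the SD of its arrays), 0.19 (glutathione supply), -0.41 (glutathione use) and -0.31 (pentose phosphate and NADPH). With the deposited log ratios the median of glutathione supply was 0.63 at 6 h and 0.73 at 48 h, and that of glutathione use -0.0936 at 48 h. With no fold threshold, 25, 22 and 32 members were called at the 3 times, earliest first, 4 from 6 h to 24 h and 25 from 24 h to 48 h. At 2-fold these counts were 1, 0, 10, 0 and 4, with 8 from 6 h to 48 h. The single call from 6 h to 24 h became 0 without a filter on dim probes, without the doubted arrays, with time alone in the model and with high local backgrounds kept, and 2 with array weights. With processed signals, normexp offset 10 and the deposited log ratios the count stayed at 1 but the member was Gclm, not Slc7a11. Without the doubted arrays 3 members were called from 6 h to 24 h in co-culture and 0 for cortisol.

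Leaving out 1 array at a time, the counts of members called ran from 6 to 8 at 6 h, 2 to 3 at 24 h, 17 to 20 at 48 h, 0 to 2 from 6 h to 24 h, 14 to 18 from 24 h to 48 h and 16 to 18 from 6 h to 48 h. In co-culture they ran from 12 to 14 (48 h against 6 h) and 3 to 7 (24 h against 6 h), and in cells alone from 7 to 10 and 1 to 3. For hormones they were 0, other than 1 for cortisol in co-culture. Of the alternative values of single members, 3896 stayed as they were, called or uncalled. Another 135 passed a threshold they had missed and 132 no longer passed it. Of the values uncalled in the main fit 66 changed sign, as did 3 of those called. Keeping high local backgrounds and keeping outlier spots were chosen after seeing the data. Beyond the pairing of both cultures on an array and the treatment term, no paired analysis was possible because each condition has 1 array and the labels give no replicate numbers.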
